A study of Mus musculus with 8 samples.

Results

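Amino acid transporter genes were followed in the posterior part of Cdx2 null mutant embryos and wild type embryos. They were taken as the genes whose name on the array begins with Slc1a, Slc3a, Slc6a, Slc7a, Slc36a, Slc38a or Slc43a and a number, which are solute carrier families that hold plasma membrane and lysosomal transporters of amino acids and related molecules. The array named 62 such genes with 109 probes. A gene was measured where a probe of it was well above background in 1 genotype on 3 or 4 arrays of a stage, which held for 35 genes of 15502 measured in all, and for 50 probes of 21922. One of the 35, Slc7a6os, is matched by its name but lies on the opposite strand of Slc7a6 and is not a transporter gene, so 34 measured transporter genes remained. Cdx2 is a homeobox gene that acts in the trophoblast, in posterior body growth and in the gut. The tissue reached from behind the most recent somite to where the allantois is attached, from C57Bl6J/CBA embryos. Its RNA was labelled with Cy3 or Cy5 and read on Agilent mouse microarrays. The groups were Cdx2 null pools at 7/8 somites and at 4/5 somites and wild type pools at 7/8 somites and at 4/5 somites, each taken here as 1 pool of 20 embryos. The embryos' age in days and the construction of the null allele are unstated in the labels, and no other allele or agent is named.

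Cells take up amino acids through carriers that differ in their substrates and partners. Light chains of the Slc7 family, such as Slc7a5, Slc7a6, Slc7a7 and Slc7a8, reach the plasma membrane bound to the heavy chain Slc3a2, whereas Slc7a9 pairs with Slc3a1. The Slc7 family also holds cationic amino acid transporters that need no heavy chain, among them Slc7a1 and Slc7a3. Slc38 carriers import glutamine, alanine and related amino acids, Slc1 carriers import glutamate or exchange small neutral amino acids, and Slc6 carriers take up glycine, proline, taurine, creatine, GABA and others. In the early mouse embryo the visceral endoderm, the absorptive outer layer that nourishes the embryo before the placenta works, takes up protein by endocytosis.

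Each array carried both pools of a stage. The null pool was in Cy3 on arrays 1 and 3 and in Cy5 on arrays 2 and 4, with the wild type pool in the other dye. Arrays 1 and 2 of both stages lay on 1 slide and arrays 3 and 4 on another. The share of probes well above background was 46.6% to 59.0% per channel. The Cdx2 probe was lower in null pools on all 8 arrays, with log2 ratios of -1.55 ± 0.052 at 7/8 somites and -1.23 ± 0.12 at 4/5 somites (SD over 4 arrays), and the sources do not say whether it lies in the removed part. Of the lists of tissue markers, 8 of 9 presomitic mesoderm and somite genes, with Pax1 the exception, and 5 of 8 neural tube genes were measured. The labels mark arrays 1 and 2 of a stage bio1 and arrays 3 and 4 tech1, and do not say whether these came from separate extractions. They were taken as the same 2 pools, so that the SD over arrays is read as a technical spread, and the p-values below rest on the spread between the 2 stage means of a gene, moderated across genes.

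Of the 35 measured genes, 4 were higher in null pools over both stages, all of them Slc7 genes (Slc7a7, Slc7a8, Slc7a3 and Slc7a9), and 0 were lower. The test was limma on the mean log2 ratio of each stage, two-sided, with p-values adjusted over all 15502 genes by Benjamini-Hochberg and calls made up to 0.05. In most sets of data simulated with 2 stage means per gene, more than 5% of the calls fell on unchanged genes, so calls near the threshold are uncertain. Far fewer genes were changed in those sets than were called here, each equally at both stages, so the share in these data may differ. Over all genes tested, 6.39% were called higher and 4.32% lower, a split of 990 to 669 genes that became 874 to 224 with median centring in place of loess. At an unadjusted p of at most 0.05, 6 of the 35 genes were reached, beside 3428 of all 15502 genes tested. Slc6a6 (higher) and Slc38a10 (lower) were those added to the 4. The median log2 ratio of the 35 genes was -0.0036, against -0.0058 over all genes tested, and 30 of the 35 lay within 0.3 of 0. The share of all genes within that limit is not given here. A look at size alone, at least 1.5-fold with the same sign on all 4 arrays of a stage, found 3 genes higher and 0 lower at 7/8 somites (Slc7a7, Slc7a8 and Slc6a6) and 3 higher and 0 lower at 4/5 somites (Slc7a7, Slc7a8 and Slc7a3). The same limit was passed by 1.49% of all genes upward and 1.12% downward at 7/8 somites, and by 1.34% upward and 0.981% downward at 4/5 somites. In pooled tissue, a difference in the number of cells of a type and a difference in RNA per cell cannot be told apart.

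**Figure D1:**
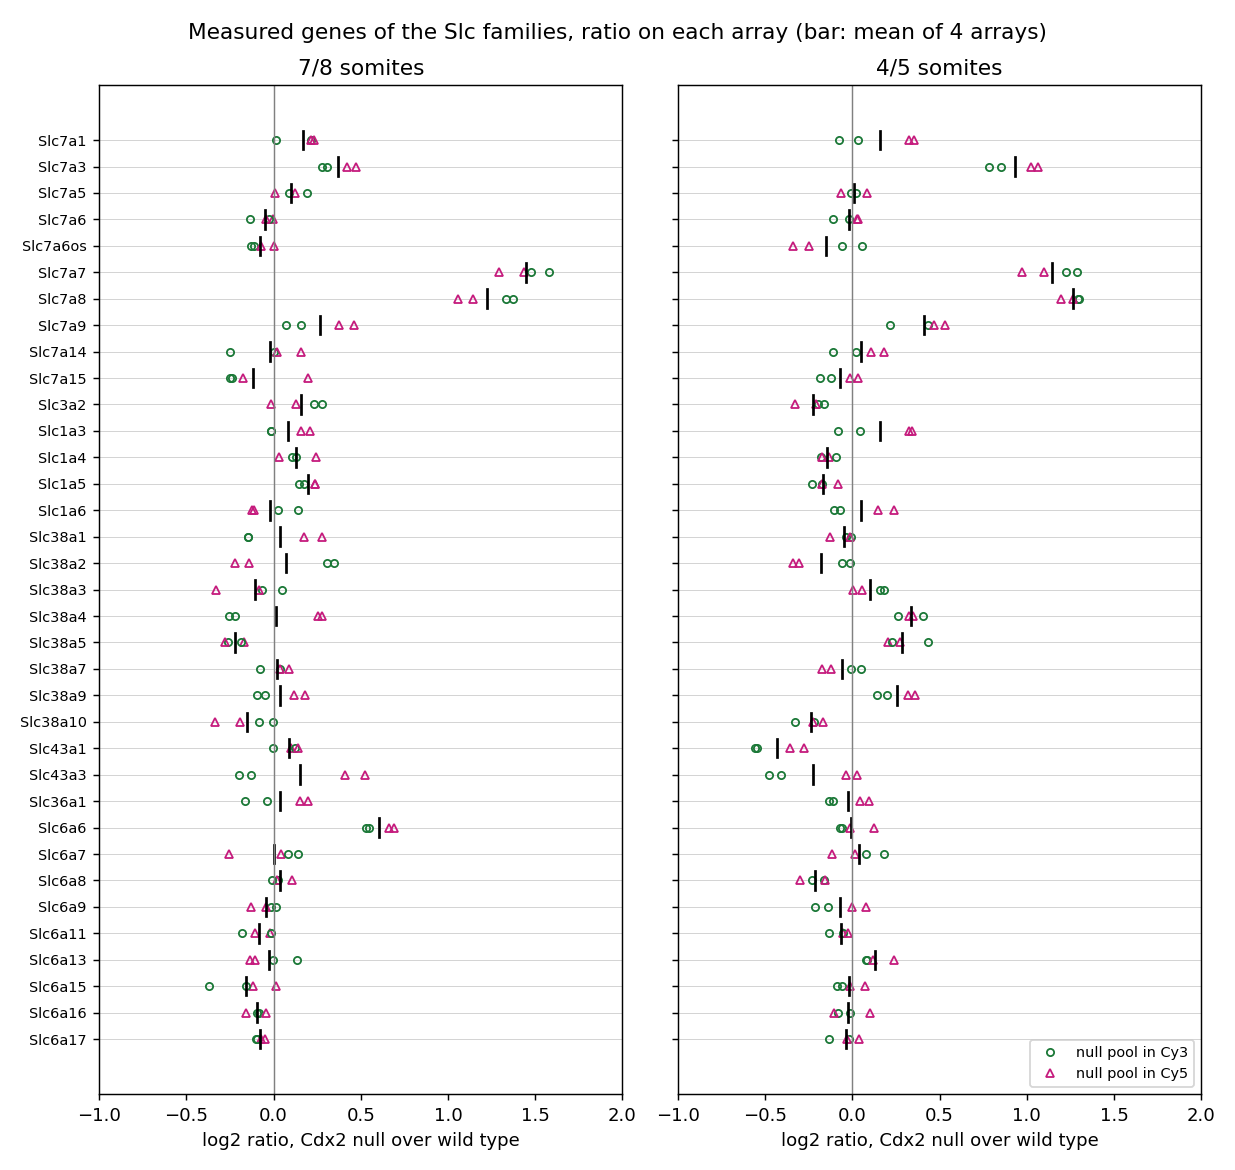
Log2 ratio of null over wild type for each of the 35 measured genes (rows), 7/8 somites on the left and 4/5 somites on the right. Circles are arrays with the null pool in Cy3, triangles arrays with it in Cy5, and bars the mean of 4 arrays. Slc7a7 and Slc7a8 lie at 0.97 or higher on every array, Slc7a3 lies above 0 on all 8 arrays and far higher at 4/5 somites, and most other genes scatter around 0.

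**Figure D2:**
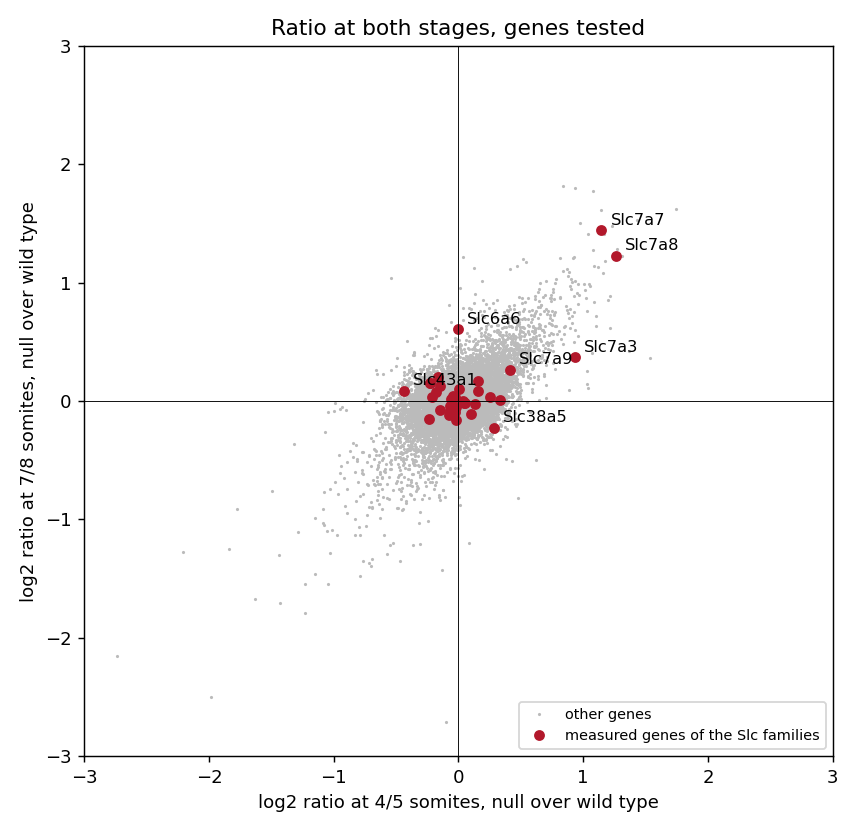
Mean log2 ratio of null over wild type at 7/8 somites (vertical) against 4/5 somites (horizontal) for the genes tested. Red points are the 35 measured genes, Slc7a6os included, and grey points the other genes. Slc7a7 and Slc7a8 lie far up on both axes, Slc7a3 mostly along the 4/5 somite axis and Slc6a6 only along the 7/8 somite axis, while the others lie within the bulk of all genes.

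Slc7a7 showed the largest mean ratio of the 35 genes. It encodes y+LAT1, a light chain that exports arginine and lysine across the basolateral membrane of absorptive epithelia, and its loss in humans causes lysinuric protein intolerance. At 7/8 somites its log2 intensity was 12.11, 11.82, 12.06 and 11.96 in the null pool and 10.53, 10.53, 10.58 and 10.53 in the wild type pool on arrays 1 to 4. At 4/5 somites it was 12.59, 12.37, 12.49 and 12.47 in the null pool and 11.36, 11.40, 11.20 and 11.37 in the wild type pool. Every null value lay above every wild type value of the same stage. Its log2 ratio was 1.45 ± 0.12 at 7/8 somites and 1.15 ± 0.14 at 4/5 somites (SD over 4 arrays), a 2.72-fold and a 2.21-fold higher level. Over both stages it was 1.30 (SE 0.091, adjusted p = 9.26e-09) in limma, positive on 8 of 8 arrays. The gene has 1 probe on the array, at chr14:54989166-54989225 of build mm9, so no second probe checks it, and the exon or UTR it lies in was not analysed here.

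Slc7a8 was higher by about as much. It encodes LAT2, a light chain that exchanges neutral amino acids, also at basolateral membranes. Its log2 intensity at 7/8 somites was 8.89, 8.93, 8.80 and 8.78 in the null pool and 7.52, 7.78, 7.46 and 7.72 in the wild type pool on arrays 1 to 4. Its values at 4/5 somites were 9.94, 9.80, 10.04 and 10.005 in the null pool and 8.64, 8.60, 8.74 and 8.74 in the wild type pool. Null and wild type values did not overlap within a stage, and the null values at 7/8 somites were close to the wild type values at 4/5 somites. The log2 ratio was 1.23 ± 0.15 at 7/8 somites and 1.26 ± 0.049 at 4/5 somites, and 1.24 (SE 0.084, adjusted p = 7.12e-09) over both stages in limma, positive on 8 of 8 arrays. Its only probe lies at chr14:55341137-55341196 of build mm9. At 7/8 somites the ratio with the null pool in Cy3 averaged 1.35, and 1.101 with it in Cy5.

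**Figure D3:**
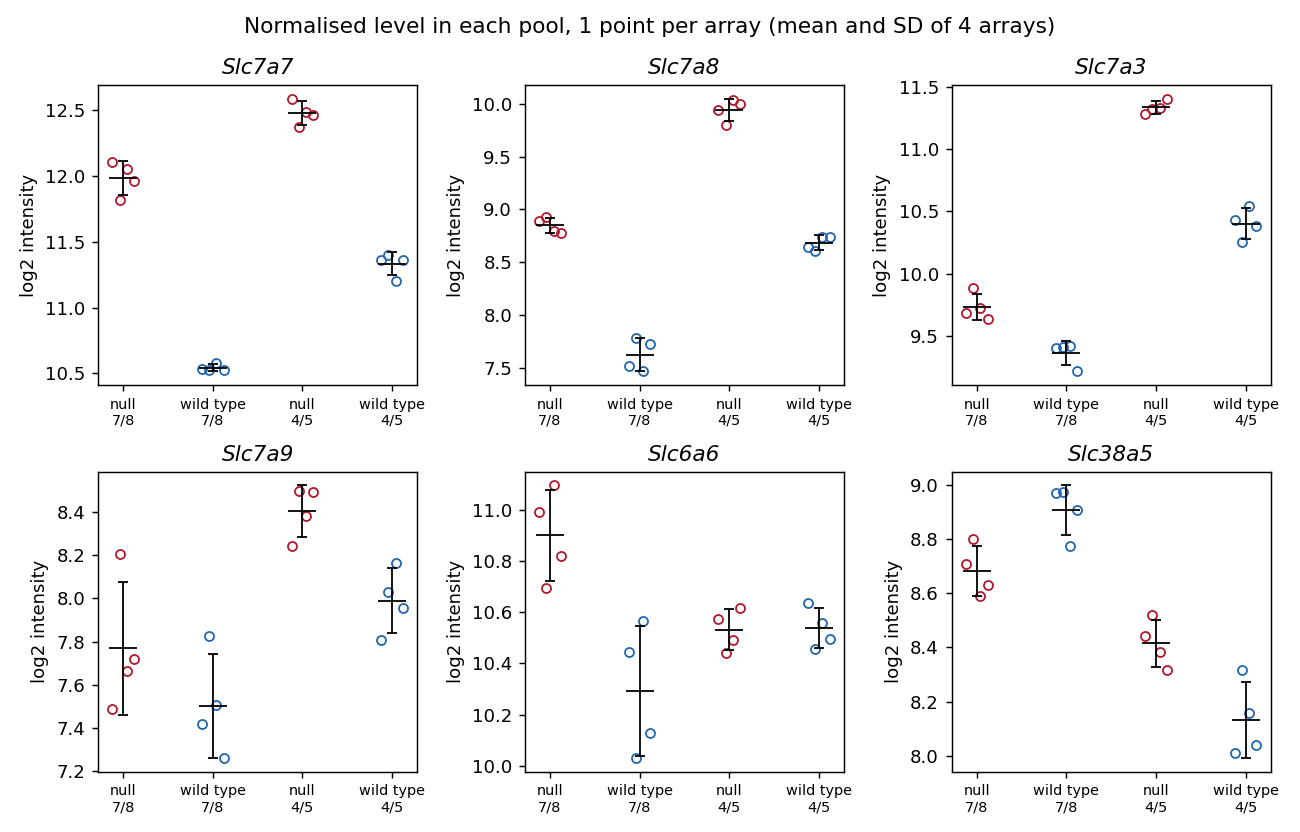
Normalised log2 intensity of 6 genes in the 4 pools, 1 circle per array, with the mean and SD of 4 arrays (black). Null pools are red and wild type pools blue. Slc7a7, Slc7a8 and Slc7a3 are higher in null pools at both stages and lower at 7/8 than at 4/5 somites in both genotypes, Slc6a6 separates the genotypes only at 7/8 somites, and Slc38a5 is higher at 7/8 somites in both genotypes.

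Slc7a7 and Slc7a8 lie on the same chromosome, 14, and the RefSeq table of assembly GRCm38.p6 lists 15 protein-coding genes between them, of which 11 were measured. This look was taken after the values of both genes were seen. The 11 genes ranged from -0.31 for Prmt5, an arginine methyltransferase, to 0.46 for Haus4, a subunit of the augmin complex of the spindle. In limma, Haus4 (adjusted p = 0.000987) and Mmp14 (0.34, adjusted p = 0.0113), a membrane-bound matrix protease, were called higher. Prmt5 was called lower (adjusted p = 0.0365). Of all genes tested, 6.39% were called higher and 4.32% lower. How these neighbour calls held in other settings was not looked at. Mrpl52, next to Slc7a7, had a log2 ratio of -0.042. The measured gene nearest to Slc7a8, 1700123O20Rik, had -0.047. All 11 therefore lay below Slc7a7 and Slc7a8 in size.

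**Figure D4:**
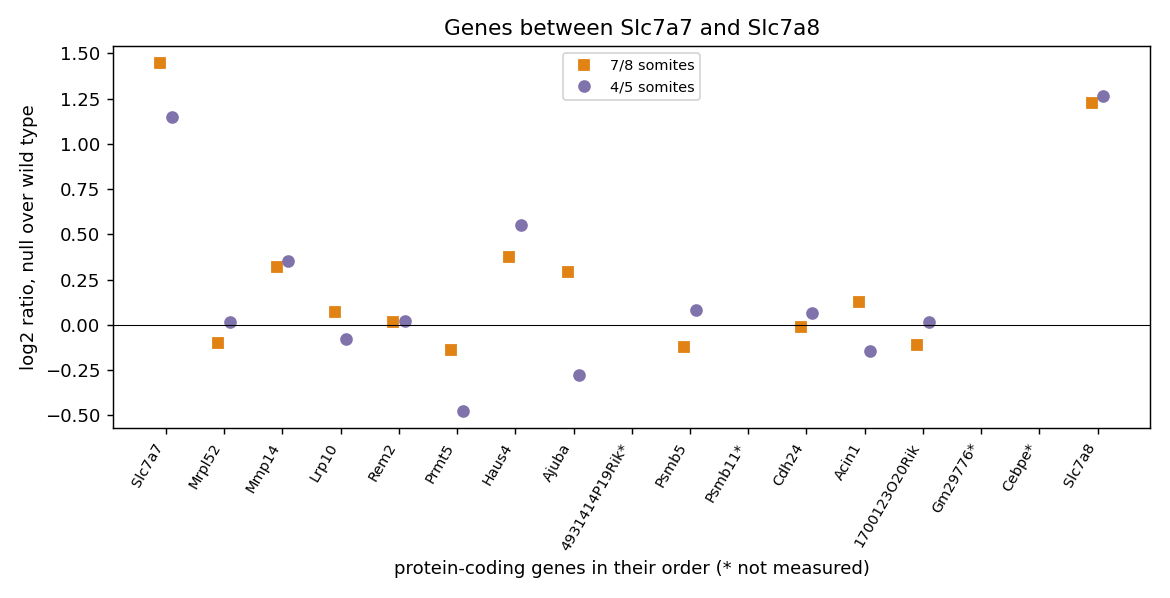
Mean log2 ratio of null over wild type at 7/8 somites (squares) and 4/5 somites (circles) for the protein-coding genes between Slc7a7 and Slc7a8, in their order on the chromosome; an asterisk marks genes not measured. The 2 outer genes stand above 1 at both stages and the genes between them between -0.48 and 0.55.

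The start regions of these 2 genes are shown because they had the largest ratios and lie near each other. The windows run from 250 bases before to 50 bases after a start that RefSeq annotates (GRCm38.p6). Both strands were searched for 2 motifs, TGATGNAAN, the composite C/EBP-ATF type that ATF4 binds in genes of the amino acid response, and TTTATNG, of the type that Cdx proteins bind. Capitals mark TGATGNAAN.
Slc7a7 (chr14:54417895-54418194, minus strand): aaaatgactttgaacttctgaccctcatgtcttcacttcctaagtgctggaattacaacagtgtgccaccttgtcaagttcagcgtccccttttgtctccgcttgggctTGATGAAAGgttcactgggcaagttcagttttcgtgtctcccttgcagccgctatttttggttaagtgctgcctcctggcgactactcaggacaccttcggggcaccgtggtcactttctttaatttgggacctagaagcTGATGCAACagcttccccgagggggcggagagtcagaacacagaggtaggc
Slc7a8 (chr14:54781837-54782136, minus strand): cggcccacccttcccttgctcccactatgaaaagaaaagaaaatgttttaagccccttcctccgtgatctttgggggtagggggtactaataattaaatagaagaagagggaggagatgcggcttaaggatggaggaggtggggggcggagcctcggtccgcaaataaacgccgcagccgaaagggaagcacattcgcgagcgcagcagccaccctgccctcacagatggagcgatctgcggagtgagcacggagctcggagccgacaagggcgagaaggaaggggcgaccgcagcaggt
The Slc7a7 window holds TGATGNAAN at 2 places, as TGATGAAAG starting 141 bases before the annotated start and as TGATGCAAC starting 1 base before it. The second of these is also in another of the 5 overlapping or nearby windows that the table gives for Slc7a7, and the other 3 windows hold none. The window printed for Slc7a7 is thus the one of its 5 with the most matches. The Slc7a8 window holds neither motif. Among all 32851 windows, 3.95% hold TGATGNAAN and 10.9% hold TTTATNG. Of the 25 measured genes with a window in the table, TGATGNAAN was found in windows of Slc7a7 and Slc1a4, and TTTATNG in 1 window of Slc7a15. The shares count windows, whereas the 25 are genes, several with more than 1 window and Slc7a7 with the most, so they are unlike measures. Both Slc7a9 windows hold neither motif. A match of letters is a description of the window.

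Neither the heavy chain nor the other measured light chains of this group were called. Slc3a2, the heavy chain 4F2hc that both light chains need, had log2 ratios of 0.23, -0.014, 0.28 and 0.13 at 7/8 somites and -0.20, -0.21, -0.16 and -0.33 at 4/5 somites. They were mostly above 0 at the later stage and all below 0 at the earlier one, and the mean over both stages was -0.034 (SE 0.095, adjusted p = 0.905) in limma. Its second, much dimmer probe gave 0.075 and -0.073. Slc7a5, the large neutral light chain LAT1, stood at 0.10 ± 0.076 and 0.0066 ± 0.064. Slc7a6, y+LAT2, the closest relative of Slc7a7 in function, stood at -0.052 ± 0.057 and -0.017 ± 0.067. Slc7a10, Slc7a11, Slc7a12 and Slc7a13, other light chains, were not measured.

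Slc7a9 encodes b0,+AT, the light chain of the apical carrier that takes up cystine and cationic amino acids, and is mutated in human cystinuria. The log2 intensity of its probe at 7/8 somites was 7.49, 8.20, 7.66 and 7.72 in the null pool and 7.42, 7.83, 7.51 and 7.26 in the wild type pool on arrays 1 to 4. The 4/5 somite values were 8.24, 8.50, 8.38 and 8.49 in the null pool and 7.81, 8.03, 8.16 and 7.96 in the wild type pool. The 2 genotypes overlapped at 7/8 somites and were apart at 4/5 somites. Within each array the null pool was the higher, with log2 ratios of 0.071, 0.38, 0.16 and 0.46 at 7/8 somites and 0.43, 0.47, 0.21 and 0.53 at 4/5 somites. Over both stages the log2 ratio was 0.34 (SE 0.086, adjusted p = 0.0121) in limma, which is 1.26-fold. The call was lost in 8 of 21 other settings, among them leaving out array 2 of 4/5 somites (adjusted p = 0.0578), array 2 of 7/8 somites (0.0892) or array 4 of 7/8 somites (0.0905). Its heavy chain, Slc3a1 (rBAT), was not measured, since its probe was well above background in a genotype on at most 1 array of a stage.

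Slc7a3, which encodes the cationic amino acid transporter CAT3, was called higher, with the larger ratio at the earlier stage. On the arrays of 7/8 somites its log2 intensity was 9.69, 9.88, 9.73 and 9.64 in the null pool and 9.41, 9.41, 9.42 and 9.22 in the wild type pool on arrays 1 to 4. On those of 4/5 somites it was 11.28, 11.32, 11.33 and 11.40 in the null pool and 10.43, 10.25, 10.55 and 10.38 in the wild type pool. The genotypes did not overlap at either stage, and the gap was wider at 4/5 somites. The log2 ratio was 0.37 ± 0.092 at 7/8 somites and 0.93 ± 0.13 at 4/5 somites, and 0.65 (SE 0.11, adjusted p = 0.000252) over both stages in limma, positive on 8 of 8 arrays. The gap of the 2 stage ratios is larger than the SD over arrays, but with 1 pool per genotype and stage it has no test. The call was lost in 3 of 21 other settings, with no background correction, with no filter on dim probes and with fewer prior degrees of freedom (adjusted p = 0.0872, 0.0884 and 0.0769). Its only probe lies at chrX:98274660-98274719 of build mm9.

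The 2 slides gave like values for the called genes. Slc7a7 averaged 1.43 on slide 1 and 1.46 on slide 2 at 7/8 somites, and 1.099 and 1.19 at 4/5 somites. Slc7a8 averaged 1.26 on slide 1 and 1.20 on slide 2 at 7/8 somites, and 1.25 and 1.28 at 4/5 somites. Slc7a3 averaged 0.38 on slide 1 and 0.36 on slide 2 at 7/8 somites, and 0.96 and 0.90 at 4/5 somites. Slc7a9 averaged 0.22 and 0.31 at 7/8 somites, and 0.45 and 0.37 at 4/5 somites, so all 4 genes were above 0 on both slides at both stages.

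Slc7a1, the widely expressed cationic transporter CAT1, had a log2 ratio of 0.16 (SE 0.084, adjusted p = 0.272) and was not called. Its ratios at 4/5 somites depended on the dye, averaging -0.024 with the null pool in Cy3 and 0.34 with it in Cy5, and its second, dimmer probe gave -0.037 at 7/8 and -0.093 at 4/5 somites. Slc7a14 (0.015), Slc7a15 (-0.094) and the opposite-strand gene Slc7a6os (-0.11) were not called either. Slc7a2 and Slc7a4 were not measured. Thus 4 of the 10 measured names of the Slc7 family were called higher, and 0 of the 25 of the other families, beside 6.39% of all genes. The families were set side by side after the calls were seen, and the difference between them was not tested.

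In the Slc6 family, 9 of 20 genes were measured and none was called over both stages. Slc6a6, the taurine transporter, stood apart at 7/8 somites. Its brighter probe had at 7/8 somites a log2 intensity of 10.99, 10.69, 11.10 and 10.82 in the null pool and 10.44, 10.03, 10.56 and 10.13 in the wild type pool on arrays 1 to 4. At the earlier stage it had 10.57, 10.44, 10.49 and 10.62 in the null pool and 10.64, 10.46, 10.56 and 10.496 in the wild type pool. The null values exceeded all wild type values at 7/8 somites, and the genotypes overlapped at 4/5 somites. The log2 ratio was 0.61 ± 0.08 at 7/8 somites, a 1.52-fold higher level, and -0.0064 ± 0.088 at 4/5 somites. Over both stages it was 0.30 (SE 0.11, adjusted p = 0.0925) in limma. Its second, dimmer probe gave 0.12 at 7/8 somites and 0.19 at 4/5 somites, so the 2 probes differ.

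Slc6a8, the creatine transporter, had a log2 ratio of 0.035 ± 0.048 at 7/8 somites and -0.21 ± 0.068 at 4/5 somites, with all 4 arrays of the earlier stage below 0. Slc6a9, the glycine transporter GLYT1, gave -0.056 (SE 0.084, adjusted p = 0.8) over both stages. The dim carriers of GABA (Slc6a11 and Slc6a13), proline (Slc6a7) and neutral amino acids (Slc6a15 and Slc6a17) and the orphan Slc6a16 lay between -0.089 and 0.051. Slc6a11, Slc6a13, Slc6a17, Slc7a14 and Slc7a15 entered on the least evidence, 3 arrays well above background. Slc1a2, Slc36a3, Slc38a8, Slc43a2, Slc6a14 and Slc7a2, with 2 such arrays at most, were left out. So were Slc3a1, Slc6a3, Slc6a4, Slc6a12, Slc6a20b and Slc7a4 with 1 such array at most. The other 15 of the 27 genes not measured had none, among them Slc1a1, Slc1a7, Slc38a11, Slc7a10, Slc7a11, Slc7a12 and Slc7a13.

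In the Slc38 family, 8 of 10 genes were measured and none was called. Slc38a1 and Slc38a2, the sodium-coupled importers SNAT1 and SNAT2 that carry glutamine and alanine, gave -0.0036 (SE 0.085, adjusted p = 0.992) and -0.054 (SE 0.089, adjusted p = 0.822) over both stages. For Slc38a2 the sign at 7/8 somites followed the dye on the brightest probe. Its ratio was 0.33 with the null pool in Cy3 and -0.18 with it in Cy5. The dimmer kept probes of Slc38a2 gave -0.08, -0.016 and -0.055 at 7/8 somites, and their signs did not follow the dye. The brighter probe of Slc38a4, an importer that is imprinted in the mouse, also followed the dye at 7/8 somites (-0.24 and 0.27). At 4/5 somites it was above 0 on all arrays (0.33 ± 0.059). There the second, dimmer probe gave -0.14 with all 4 arrays below 0. At 7/8 somites that second probe gave 0.26 with all 4 arrays above 0, so the 2 probes differ. Slc38a10 had the lowest mean of the 35 genes, -0.20 (SE 0.085, adjusted p = 0.169), with 8 of 8 arrays below 0. Slc38a9, the lysosomal arginine sensor of mTORC1, stood at 0.038 ± 0.13 and 0.26 ± 0.10, with the second probe at -0.019 and -0.04. Slc38a3 and Slc38a7 averaged -0.0053 and -0.02.

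Slc38a5, which encodes the glutamine carrier SNAT5, had ratios of opposite sign at the 2 stages. In log2 intensity at 7/8 somites it was 8.71, 8.80, 8.59 and 8.63 in the null pool and 8.97, 8.97, 8.77 and 8.91 in the wild type pool on arrays 1 to 4. For 4/5 somites the values were 8.44, 8.52, 8.38 and 8.32 in the null pool and 8.01, 8.32, 8.16 and 8.04 in the wild type pool. The levels of the genotypes overlapped at both stages. Within arrays the log2 ratio was -0.26, -0.17, -0.19 and -0.28 at 7/8 somites and 0.43, 0.20, 0.23 and 0.27 at 4/5 somites, so every array of the later stage was below 0 and every array of the earlier stage above it. Slc1a5, the neutral exchanger ASCT2, ran the other way with 0.15, 0.24, 0.17 and 0.24 at 7/8 somites and -0.17, -0.085, -0.23 and -0.18 at 4/5 somites. Slc1a4, the exchanger ASCT1, did so too, with means of 0.13 ± 0.087 and -0.15 ± 0.041. Its second, dimmer probe gave 0.067 at 7/8 and -0.043 at 4/5 somites, with arrays of both signs at each stage. Slc38a5, Slc1a5 and Slc1a4 were 3 of the 35 genes. Of all genes tested, 3.84% had one sign on the 4 arrays of a stage and the opposite sign on those of the other.

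None of the remaining carriers was called. Slc43a1, the neutral carrier LAT3, was 0.089 ± 0.066 at 7/8 somites and -0.43 ± 0.14 at 4/5 somites, with all 4 arrays of the earlier stage below 0, and -0.17 (SE 0.10, adjusted p = 0.361) over both. Slc43a3, a purine nucleobase carrier of the same family, had at 7/8 somites -0.16 with the null pool in Cy3 and 0.47 with it in Cy5. Slc1a3, the glutamate transporter GLAST, averaged 0.12, Slc1a6, another glutamate transporter, 0.016, and Slc36a1, a proton-coupled lysosomal carrier, 0.0052. At each stage the 2 dye orders gave opposite signs for 13 of the 35 genes, and 6 genes had one sign on all 8 arrays. The shares of all genes are not given here, so these counts do not set the 35 genes apart.

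Between the stages, several of the same genes differed. In null pools 3 genes were at least 1.5-fold lower at 7/8 than at 4/5 somites without overlap of arrays and 0 were higher, and in wild type pools 3 were lower and 1 was higher. Over all genes this limit was passed by 0.929% downward and 0.897% upward in null pools, and by 0.8% downward and 0.716% upward in wild type pools. Slc7a3 differed by -1.60 in null pools and -1.04 in wild type pools (7/8 minus 4/5 somites, log2). Slc7a8 differed by -1.098 and -1.06. Slc7a7 passed the limit in wild type pools (-0.79), with -0.49 in null pools, and Slc7a9 in null pools (-0.63), with -0.49 in wild type pools. Slc38a5 was the gene that was higher, by 0.77 in wild type pools, with 0.27 in null pools. These differences have no test, since each is between 1 pool and another, and stages were never hybridized to the same array.

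Genes that act with these carriers were described from lists. Of 21 measured genes of the amino acid response and ATF4 targets, 1 was called higher (Cebpb) and 5 lower, beside the 6.39% and 4.32% of all genes, with a median log2 ratio of -0.086. The lower ones were Ddit4, Vldlr, Sesn2, Stc2 and Mthfd2. How the calls of Cebpb and Mthfd2 held in other settings was not looked at. Ddit4, an inhibitor of mTORC1, was -0.81 (SE 0.094, adjusted p = 5.61e-06), and Vldlr, a lipoprotein receptor, was -0.64 (SE 0.098, adjusted p = 0.000129). Vldlr was not called in 3 of 21 other settings. Sesn2, a leucine sensor, was -0.36 (SE 0.092, adjusted p = 0.0131) and Stc2, a secreted glycoprotein, -0.36 (SE 0.11, adjusted p = 0.0423), but these calls were lost in 11 and 17 of 21 other settings. Asns, which makes asparagine and is a known ATF4 target, was 0.23 (SE 0.084, adjusted p = 0.0921), and Chac1, Ddit3 and Trib3, others of that kind, were -0.052, -0.045 and -0.14 and not called.

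Of 16 measured amino acid and peptide transporters outside the families above, 0 were higher and 1 was lower (beside 6.39% and 4.32% of all genes), the peptide transporter Slc15a2 at -0.29 (SE 0.089, adjusted p = 0.041). Of 29 measured genes of amino acid sensing by mTORC1, 0 were higher and 1 was lower, the GTPase gene Rraga at -0.29 (SE 0.085, adjusted p = 0.0294). Of 17 measured enzymes of amino acid and creatine metabolism, 0 were higher and 1 was lower, the argininosuccinate lyase gene Asl at -0.28 (SE 0.084, adjusted p = 0.0339). The calls of Slc15a2, Rraga and Asl were lost in 17, 14 and 13 of 21 other settings. The medians of these lists were -0.0057, 0.023 and -0.085.

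Markers of other cell types also differed between the genotypes, in directions that varied by list, and the counts below stand beside 6.39% of all genes called higher and 4.32% lower. All 18 visceral endoderm markers were measured, and 9 were called higher and 0 lower in null pools, with a median log2 ratio of 0.26. Cubn and Amn, the subunits of an endocytic receptor for proteins, were 1.18 (SE 0.087, adjusted p = 1.88e-08) and 0.97 (SE 0.089, adjusted p = 2.86e-07), the lipid carrier Apoe was 0.96 (SE 0.086, adjusted p = 2.28e-07) and the endocytic adaptor Dab2 0.69 (SE 0.086, adjusted p = 1.17e-05). The defining gene Afp had ratios of opposite sign, -0.82 ± 0.096 at 7/8 somites and 0.48 ± 0.079 at 4/5 somites, and was not called over both stages. Ttr, another defining gene, had 0.032 ± 0.085 and 0.26 ± 0.20 and was not called. The summed intensity of the list ranged over 20305 to 40975 in null pools and 16347 to 30302 in wild type pools at 7/8 somites. At 4/5 somites it ranged over 48192 to 68923 in null pools and 35860 to 48263 in wild type pools. Taken without pairing the pools of an array, these ranges of the genotypes overlapped within a stage. The log2 of the list's summed mean levels was 15.29 in null and 14.86 in wild type pools at 7/8 somites. At 4/5 somites it was 16.06 in null and 15.52 in wild type pools. The sum was lower at the later stage in both genotypes. The part of the visceral endoderm in the Slc7 differences was not tested.

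Of 12 gut endoderm markers, 6 were called higher and 2 lower (median 0.18), and their summed intensity ranged over 96371 to 108566 in null pools and 67985 to 72390 in wild type pools at 7/8 somites and over 90177 to 97397 in null pools and 71548 to 80571 in wild type pools at 4/5 somites. Spink1, a trypsin inhibitor of the visceral and hindgut endoderm, was 0.74 (SE 0.084, adjusted p = 4.28e-06), Sox17, a transcription factor of the endoderm, 0.58 (SE 0.094, adjusted p = 0.000254), the keratin gene Krt19 -1.37 (SE 0.086, adjusted p = 2.94e-09) and the ligand gene Shh -0.60 (SE 0.085, adjusted p = 5.43e-05). The call of Sox17 was lost in 3 of 21 other settings. Of 10 trophoblast markers 7 were measured (Tpbpa, Gcm1 and Psg17 were not), and 5 were higher (Prl4a1, Prl2c5, Prl3d1, Rhox6 and Elf5) and 1 lower (Plac1), with a median of 0.52 and summed intensities of 3492 to 3866 in null pools and 2242 to 2521 in wild type pools at 7/8 somites and 2661 to 2958 in null pools and 2199 to 2341 in wild type pools at 4/5 somites. Of 8 measured surface ectoderm markers 5 were higher (Krt5, Wnt6, Epcam, Grhl2 and Gata3) and 0 lower, with a median of 0.32 and summed intensities of 8969 to 10727 in null pools and 6135 to 7154 in wild type pools at 7/8 somites and 7134 to 8474 in null pools and 5563 to 6246 in wild type pools at 4/5 somites; Epcam counts here and in the gut list, and Foxa2 in the gut and visceral lists.

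Of 7 measured primitive erythroid markers 0 were higher and 1 was lower, Hbb-bh1 (median -0.13). Of 10 endothelial markers 1 was higher, Flt1, and 3 were lower, Etv2, Kdr and Egfl7 (median -0.11). Of 5 neural tube markers 0 were called (median 0.049). Of 8 presomitic mesoderm and somite markers 2 were higher, Meox1 and Tcf15, and 2 lower, Msgn1 and T (median -0.096). The erythroid sum was several times higher at the later stage (5120 to 5785 in null pools and 6022 to 6336 in wild type pools) than at 4/5 somites (1203 to 1261 in null pools and 1398 to 1470 in wild type pools). The part of any of these cell types in the transporter values was not tested.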

How the data were processed

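Each of the 8 arrays was deposited as scanner output, with mean spot and local background brightness as intensity values per the file headers. The deposited processed signals are intensity values that the scanner software background-subtracted and dye-normalized, and its log ratio, per the file headers, is red (Cy5) over green (Cy3) as log10. The deposited flags, 0 or 1, mark saturated, uneven and well measured spots per the file headers. Per the submitters' processing notes the software was Agilent Feature Extraction 9.5.3, whereas version 10.5.1.1 stands in the file header. The deposited series table is on the log10 scale, with null pools on top, and equalled the scanner's log ratio, turned to that direction, at all 45018 spots of each array within 1e-05.

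Spot signals were corrected by normexp (offset 50) and normalized by loess within arrays in limma 3.58.1 (R 4.3.3), with control spots at weight 0 and 1184 outlier spots (0.341%) left out. On array 1 of 4/5 somites, 58 spots had an uneven local background and received the array's median background. Probes were named through RefSeq accessions (GRCm38.p6) for 25263 of 41174 probes, and the brightest kept probe stood for a gene. Levels are log2 intensities after loess and Aquantile normalization. The fit had 1 residual degree of freedom per gene and an estimated prior of 18.3. It was tested on simulated data, where in most sets it made more than 5% of its calls on unchanged genes. How often the fit misses small changes is not given here. How often it misses changes at 1 stage only was not tested. The number of pools, taken here as 1 per genotype and stage, limits the precision, and further arrays of the same pools add no replicates.

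The amino acid transporter families, the other lists and the rules were chosen with earlier results of these data known. Every measured transporter gene could be named. Described in full are those called, those at least 1.5-fold apart with the same sign on 4 arrays of a stage, and those at least 1.5-fold apart between stages without overlap. Of other lists, up to 4 called genes with the largest mean ratio are named by rule. Asns, Chac1, Ddit3, Trib3, Afp and Ttr, and the remaining called genes where 5 or fewer were called in a direction, were added after their values were seen. Alternatives were background correction, normalization, the dim-probe filter, the choice of probe, slide, dye order, arrays left out, the size limit and the prior.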

Additional observations from a re-analysis of the deposited data

Results flagged for a closer look

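Slc38a5, Slc1a5 and Slc1a4 had ratios of opposite sign on all 4 arrays of the 2 stages. For Slc1a4 this held for the brighter probe only, as the second had arrays of both signs at each stage. For Slc38a5 the log2 ratio at 7/8 minus that at 4/5 somites was -0.51, for Slc1a5 it was 0.37 and for Slc1a4 0.27. These differences were not tested, since each stage has 1 pool per genotype.

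Single arrays stood apart from the other 3 of their stage in 2 of the 70 groups of 4 arrays looked at, and chance alone marks about 1 in 20 such groups. For Slc7a1 at 7/8 somites, array 3 had a log2 ratio of 0.013 and the others 0.21 to 0.23. For Slc7a15 at 7/8 somites, array 4 had 0.20 and the others -0.25 to -0.17.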

How the results depend on the processing

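Slc7a7 and Slc7a8 were called higher in all 21 other settings, with log2 ratios of 1.20 to 1.39 for Slc7a7 and 1.08 to 1.53 for Slc7a8. The number of amino acid transporter genes called, 4, became 2 with no background correction, with no filter on dim probes (which tests 28303 genes) and with the prior degrees of freedom set to 5, an alternative chosen after seeing the data. It was 3 to 5 when 1 array was left out. The number of all genes called, 1659, was 494 with no background correction, 966 with uneven local backgrounds kept, 1098 with median centring, 746 with no filter on dim probes, 2554 with slide as a block on dye swap pairs and 449 with the prior degrees of freedom set to 5. It was 779 to 1588 when 1 array was left out, under 1.5 times from the main count except without array 2 of 4/5 somites (921) and without array 2 (779) or 4 (944) of 7/8 somites. The fit estimates its prior from 1 residual degree of freedom per gene, and the estimate changed with the setting. With a limit of 2-fold, 2 genes in place of 4 differed between the stages in wild type pools. The 3 genes at least 1.5-fold apart between genotypes at 7/8 somites became 2 with the mean of all kept probes. They also became 2 without array 4 of 7/8 somites. Slc6a6 was called in limma on slide 2 alone and without array 1 of 4/5 somites (adjusted p = 0.0195 and 0.0277). In both of these settings the prior degrees of freedom were estimated as infinite, so a gene's own spread had no weight. Slc38a10 was called with slide as a block (0.0401) and Slc38a4 with Cy5 on the null pool alone (0.0442). The other 28 genes not called, Slc7a6os among them, were called in none of the 21. Every log2 ratio already sets the 2 pools of an array against each other. No paired analysis was possible because, beyond the pools on an array, the labels pair no samples of the 2 stages.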
